A study of Homo sapiens with 6 samples.

Results

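The AP-1 transcription factors examined here were 10 genes of the 57820 in the deposited expression tables, chosen by name: the FOS class (FOS, FOSB, FOSL1 and FOSL2), the JUN class (JUN, JUNB and JUND) and the related ATF3, BATF3 and MAFF. Their expression was measured by RNA-seq in untreated AID-DIvA cells, with 3 WT samples and 3 ARID1A-KO samples, each numbered 3 to 5. AID-DIvA cells are U2OS human osteosarcoma cells that carry an inducible AsiSI restriction enzyme under the control of an auxin degron. Both genotypes carry it, and no breaks were induced in these samples. ARID1A, a DNA-binding subunit of SWI/SNF chromatin remodeling complexes, was knocked out with Cas9 and 2 crRNAs, and knockout clones were raised. Which clone was sequenced is not given in the sources used here, so all 3 samples of this genotype may stem from the same clone, and an effect of ARID1A loss cannot be told apart from a difference between clones. The study describes its replicates as independent experiments, while the labels give a number only, and p-values measure the spread between these samples.

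AP-1 is a dimer of basic leucine zipper proteins. JUN proteins pair with each other or with FOS proteins, while FOS proteins need a JUN partner to bind DNA. Many of these genes are immediate early genes, which respond within minutes to growth factors, stress or cytokines through MAP kinases, and their products switch on genes of proliferation, matrix breakdown and inflammation. AP-1 often works at enhancers, where SWI/SNF complexes open chromatin, and the comparison here asks how expression of its subunits differed between WT and ARID1A-KO cells.

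The labels matched the targeted gene. ARID1A stood at 61.6 ± 1.73 TPM (SD, n = 3) in WT and at 9.17 ± 0.587 TPM in ARID1A-KO cells (log2 fold change -2.74, SE 0.07, adjusted p = 9.66e-08, edgeR quasi-likelihood test with Benjamini-Hochberg adjustment). Total counts ran from 54512105 to 84088708 per sample. Of the markers of the osteoblast lineage, RUNX2, COL1A1, SPARC and ALPL were detected, while 4 of 8 were under 1 TPM in every sample (SP7, BGLAP, IBSP and COL1A2), and the summed level of the list was 639 to 705 TPM in WT and 375 to 411 TPM in ARID1A-KO cells. The 5 epithelial markers summed to 643 to 737 TPM in WT and 437 to 490 TPM in ARID1A-KO cells, most of it from KRT18 and KRT8, and the 4 mesenchymal markers to 1668 to 1981 TPM and 2840 to 3182 TPM, most of it from VIM. Single markers went the other way: CDH2 fell (log2 fold change -0.72, adjusted p = 5.31e-05), FN1 did not pass (-0.19), and EPCAM was called higher (0.44, adjusted p = 0.0274), a call lost without WT replicate 4 or 5 or ARID1A-KO replicate 3 or 4. The part of these shifts in the results of the members was not tested. The 4 leukocyte markers summed to at most 1.72 TPM in any sample and the 3 matched endothelial markers to at most 1.05 TPM. Since bulk RNA was measured, a change in the cells that express a gene and a change in RNA per cell cannot be told apart.

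Sequences upstream of the genes are shown for 4 members whose promoter holds a site of the kind that AP-1 or its relatives bind. RefSeq promoters (GRCh38.p14) matched 8 of the 10 members with 10 windows of 300 bases. No promoter was in the table used here for FOSL1 and BATF3. Each line runs from 200 bases before the start to 30 after it, 5′ to 3′ on the strand of the gene, and the capitals mark the motif match. The lines come from chr2:28392658-28392887 (plus strand) for FOSL2, chr1:58784018-58784247 (minus strand) for JUN, chr19:18281593-18281822 (minus strand) for JUND and chr22:38201794-38202023 (plus strand) for MAFF.
FOSL2: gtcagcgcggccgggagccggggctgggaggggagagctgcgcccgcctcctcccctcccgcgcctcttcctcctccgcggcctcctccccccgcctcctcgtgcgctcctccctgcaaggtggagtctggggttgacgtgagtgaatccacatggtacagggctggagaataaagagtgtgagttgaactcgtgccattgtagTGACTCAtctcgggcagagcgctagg
JUN: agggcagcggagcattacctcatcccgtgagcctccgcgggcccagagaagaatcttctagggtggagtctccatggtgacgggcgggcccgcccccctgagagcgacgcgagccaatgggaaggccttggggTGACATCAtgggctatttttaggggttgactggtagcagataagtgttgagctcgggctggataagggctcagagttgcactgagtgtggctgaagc
JUND: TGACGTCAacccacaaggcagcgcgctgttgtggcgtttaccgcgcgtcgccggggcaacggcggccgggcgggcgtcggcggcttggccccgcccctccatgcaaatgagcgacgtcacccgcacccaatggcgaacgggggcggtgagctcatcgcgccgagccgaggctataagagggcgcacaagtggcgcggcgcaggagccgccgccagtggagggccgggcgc
MAFF: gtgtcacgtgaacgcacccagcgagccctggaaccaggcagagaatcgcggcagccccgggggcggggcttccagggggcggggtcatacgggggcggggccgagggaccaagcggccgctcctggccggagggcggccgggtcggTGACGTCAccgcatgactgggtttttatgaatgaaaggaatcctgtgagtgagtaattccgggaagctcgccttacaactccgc
The letters TGANTCA, the site typical of FOS and JUN dimers, were searched on both strands of the 300-base windows and were held by 7.71% of 35116 promoters. Among the members only the FOSL2 promoter held them, as TGACTCA beginning at base 5, where base 1 is the start. TGACGTCA, the site typical of CREB and ATF proteins, occurred in 1.85% of promoters and in those of JUND (200 bases before the start) and MAFF (54 bases before it). TGACATCA, the variant known from the JUN promoter, occurred in 2.61% of promoters and in those of JUN (67 bases before the start) and ATF3 (123 bases before it). No motif overlapped another in these matches. A CArG box, the site of the serum response factor SRF, was held by 1.29% of promoters and found in 0 of the 10 member windows. The search covered only these 300-base windows around the start. A site further upstream, of FOS or any other member, would not be seen, so the absence says nothing about such sites.

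All 10 members passed the filter on low counts and were tested. Of these, 5 differed between genotypes at an adjusted p under 0.05: FOS, FOSL1, BATF3 and MAFF were higher and FOSL2 was lower in ARID1A-KO cells. Over all 19599 genes tested, 36.2% passed the same threshold, 17.8% higher and 18.4% lower, so a call on its own is common in this comparison. Leaving out 1 sample at a time gave 2 to 6 members called, namely 3 when either WT replicate 3 or ARID1A-KO replicate 3 was dropped and 2 when ARID1A-KO replicate 4 was dropped. No member reached 2-fold together with the threshold, which 10.8% of all genes did (4.86% higher and 5.92% lower). The median log2 fold change of the members was 0.34, beside 0.0066 over all genes tested. The normalised counts of the groups did not overlap for 4 members (FOS, FOSL1, FOSL2 and BATF3), against 49.5% of all genes.

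Levels are given as TPM, which sum to 1000000 per sample. This unit corrects for gene length and so allows genes to be compared with each other. In WT cells JUN was the most abundant member at 134 ± 9.75 TPM (SD, n = 3), above FOSL2 at 94.7 ± 6.98 TPM, JUND at 94.0 ± 18.4 TPM and FOSL1 at 84.4 ± 9.50 TPM. The ranges of FOSL2, JUND and FOSL1 overlapped, so their order is not resolved. ATF3 (38.4 ± 0.381 TPM), JUNB (33.0 ± 9.31 TPM) and MAFF (26.5 ± 5.25 TPM) formed a next group, again with overlapping neighbours, followed by BATF3 (18.1 ± 1.63 TPM). FOS (3.05 ± 0.714 TPM) and FOSB (0.406 ± 0.165 TPM) were lowest.

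**Figure D1:**
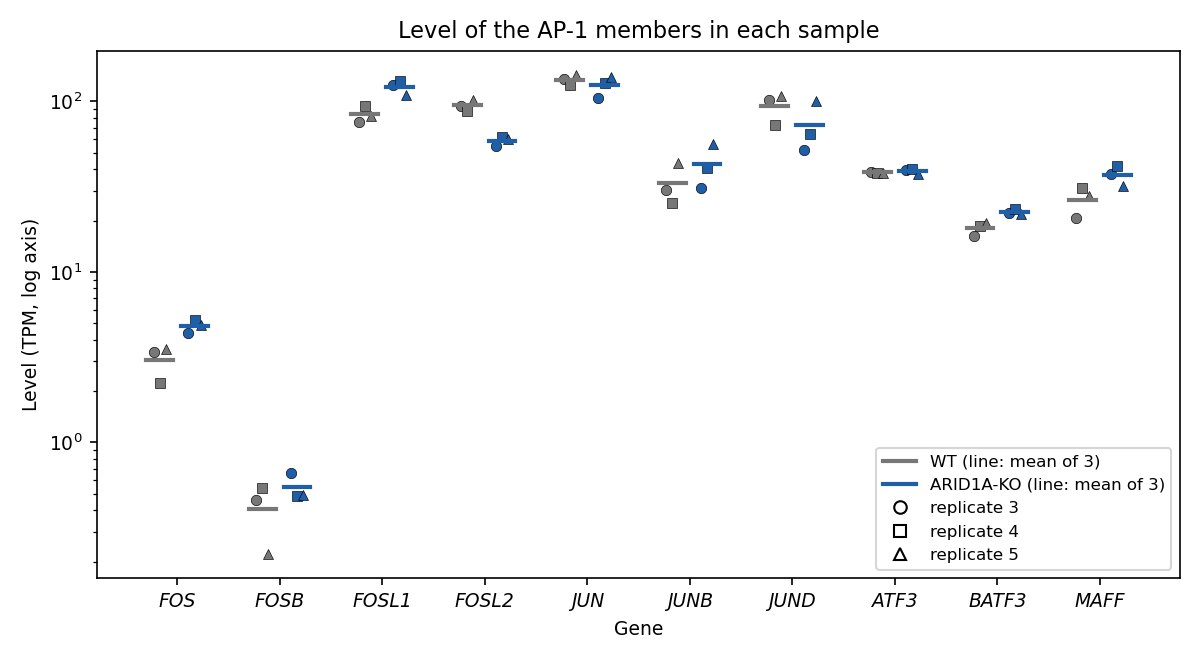
Level in TPM, on a log axis, of each AP-1 member in the 3 WT samples (grey) and the 3 ARID1A-KO samples (blue). Points are samples, their shape is the replicate number and lines are means. FOSL1 and FOSL2 move apart between the genotypes, from 84.4 and 94.7 TPM in WT to 122 and 58.7 TPM in ARID1A-KO cells.

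In ARID1A-KO cells FOSL1 rose to 122 ± 12.1 TPM, beside JUN at 124 ± 17.3 TPM, and their ranges overlapped. FOSL2, at 58.7 ± 3.58 TPM, then lay below FOSL1 in every sample. The summed level of all 10 members was 527 ± 37.2 TPM in WT and 524 ± 46.4 TPM in ARID1A-KO cells, so the groups differed by less than the spread between samples.

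FOSL1, which encodes FRA1, a FOS protein known from invasive tumour cells, lies on chromosome 11 (ENSG00000175592.4, GRCh37 positions 65659520 to 65668044, minus strand). The WT samples held 75.9, 94.7 and 82.6 TPM and the ARID1A-KO samples 125, 133 and 109 TPM. Every ARID1A-KO sample lay above every WT sample. The log2 fold change was 0.54 (SE 0.11, adjusted p = 0.00439, edgeR quasi-likelihood test), or 1.45-fold. The other 246 tested genes within 5 Mb had a median log2 fold change of 0.12.

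FOSL2 encodes FRA2, the other FRA protein, and lies on chromosome 2 (ENSG00000075426.7, 28615315 to 28640179, plus strand). It was the only member called lower. Levels were 94.6, 87.8 and 102 TPM in WT and 54.7, 61.5 and 59.8 TPM in ARID1A-KO samples, with no overlap. The log2 fold change was -0.69 (SE 0.07, adjusted p = 0.000105), so that WT was 1.61-fold higher, and the 102 neighbours within 5 Mb had a median of 0.0030. FOSL1 and FOSL2 were the only members with an adjusted p under 0.05 in all 14 alternative fits, and neither reached 2-fold.

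FOS, the prototype of the class, lies on chromosome 14 (ENSG00000170345.5, 75745477 to 75748933, plus strand). It stood at 3.40, 2.23 and 3.53 TPM in WT and at 4.38, 5.20 and 4.86 TPM in ARID1A-KO samples, without overlap. The rise was 1.58-fold (log2 fold change 0.66, SE 0.18, adjusted p = 0.0176). The 94 neighbours within 5 Mb also lay higher, at a median of 0.39. After subtracting this regional value, FOS was at 0.27 (adjusted p = 0.279), and without ARID1A-KO replicate 4 it was at 0.61 (adjusted p = 0.0667).

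FOSB, on chromosome 19 (ENSG00000125740.9, 45971253 to 45978437, plus strand), encodes an inducible FOS protein that is scarce in resting cells. Only 22 to 79 reads were counted per sample. Levels of 0.458, 0.539 and 0.222 TPM in WT overlapped those of 0.659, 0.482 and 0.492 TPM in ARID1A-KO samples. The log2 fold change of 0.42 (95% interval -0.27 to 1.11, adjusted p = 0.319) leaves room for a rise as large as that of FOS. Such a rise was not detected with this depth and this spread between samples, and the size that could be detected was not calculated.

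**Figure D2:**
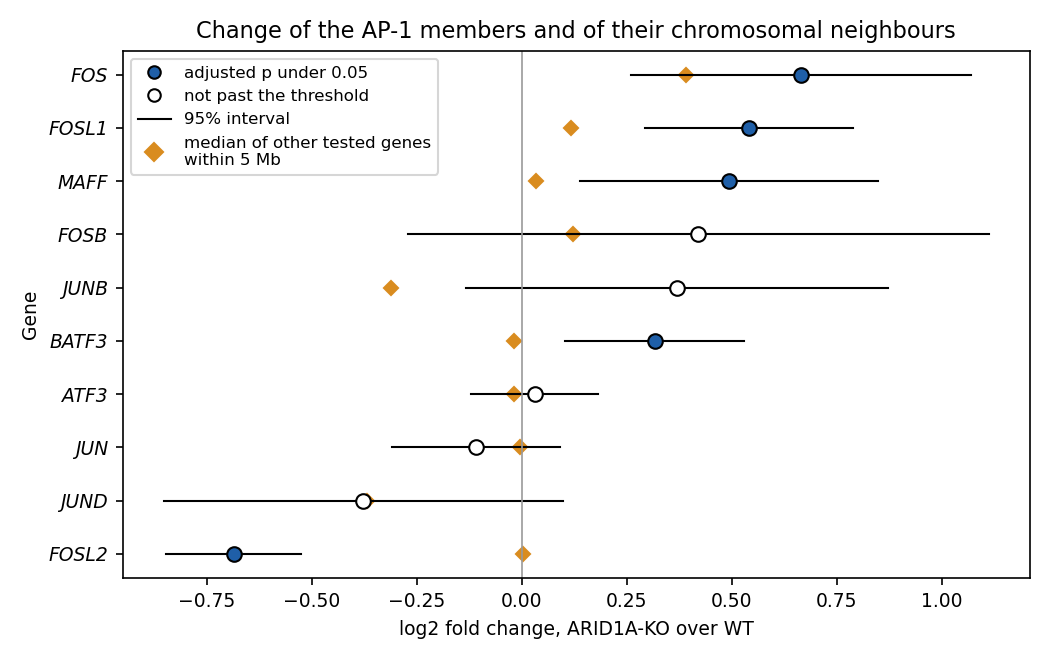
Log2 fold change of each AP-1 member, ARID1A-KO over WT, with its 95% interval. Filled circles passed an adjusted p of 0.05 and diamonds give the median of the other tested genes within 5 Mb. The diamond of FOS lies at 0.39, within the interval of the gene (0.26 to 1.07), whereas that of FOSL2 lies at 0.0030, far from -0.69.

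Together the 4 FOS genes gave 183 ± 7.26 TPM in WT and 186 ± 12.9 TPM in ARID1A-KO cells, a difference smaller than the spread. Their make-up differed. FOSL1 took 43.5%, 51.1% and 43.9% of the summed TPM in WT and 67.7%, 66.4% and 62.6% in ARID1A-KO samples. FOSL2 took 54.2%, 47.4% and 54.1% in WT and 29.6%, 30.8% and 34.4% in ARID1A-KO samples. Neither share overlapped between genotypes. The mean share of FOSL1 was thus 19.3 percentage points higher and that of FOSL2 20.3 percentage points lower in ARID1A-KO cells, while FOS made up 1.68% ± 0.410 in WT and 2.59% ± 0.210 in ARID1A-KO cells, and FOSB under 1% in every sample. The ratio of FOSL1 to FOSL2, chosen after the values were seen, was 0.803, 1.08 and 0.811 in WT and 2.29, 2.15 and 1.82 in ARID1A-KO samples. These shares and ratios describe the members and carry no test.

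**Figure D3:**
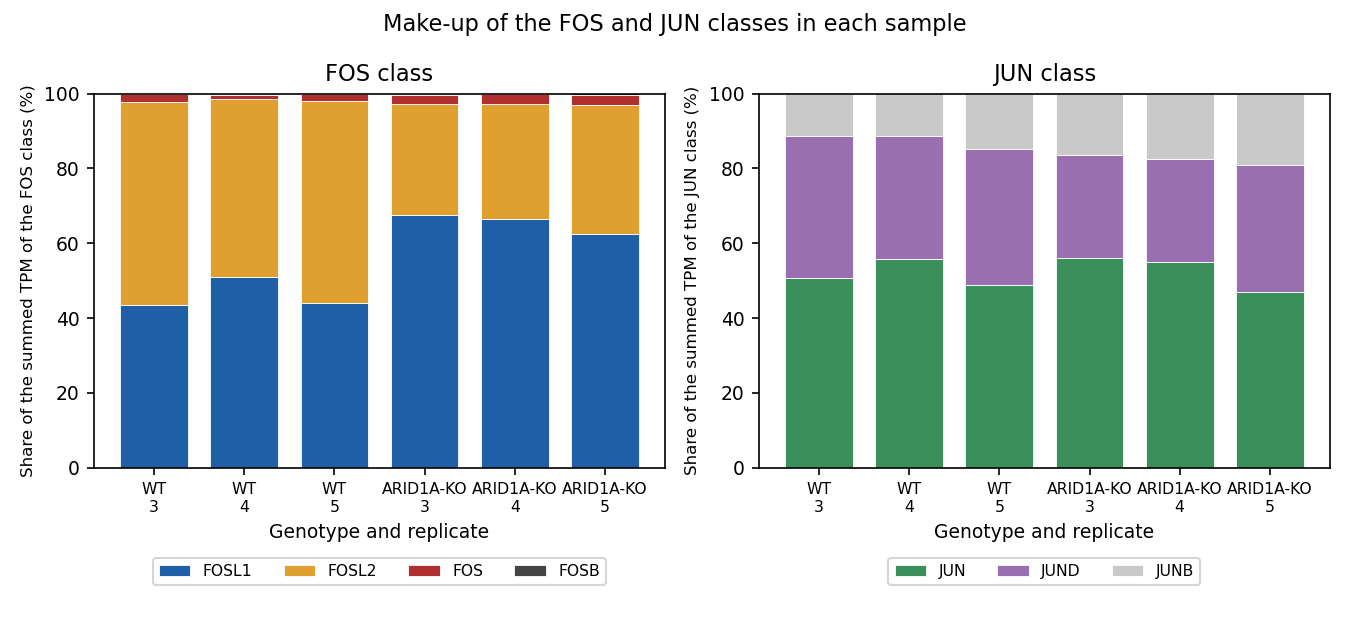
Share in percent of each gene in the summed TPM of the FOS class (left) and of the JUN class (right), one bar per sample. FOSL1 fills 43.5% to 51.1% of the FOS class in WT and 62.6% to 67.7% in ARID1A-KO samples, and FOSB is too small to see.

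JUN, the partner that most AP-1 dimers share, is a gene of 1 exon on chromosome 1 (ENSG00000177606.5, 59246465 to 59249785, minus strand). It stood at 135, 124 and 143 TPM in WT and at 105, 128 and 139 TPM in ARID1A-KO samples. The groups overlapped. The log2 fold change was -0.11 (95% interval -0.31 to 0.09, adjusted p = 0.374), so any rise beyond 0.09 or fall beyond 0.31 on the log2 scale lies outside the interval.

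JUNB, which can oppose JUN in growth control, and JUND, the member known for steady expression in resting cells, are both single-exon genes of chromosome 19 (JUNB ENSG00000171223.4, 12902310 to 12904124, plus strand, and JUND ENSG00000130522.4, 18390563 to 18392432, minus strand). JUNB was at 30.3, 25.4 and 43.4 TPM in WT and at 30.9, 40.6 and 56.5 TPM in ARID1A-KO samples. JUND was at 101, 73.0 and 108 TPM in WT and at 51.8, 64.5 and 101 TPM in ARID1A-KO samples. Both genes overlapped between genotypes and neither passed the test, with log2 fold changes of 0.37 for JUNB (95% interval -0.13 to 0.87, adjusted p = 0.227) and -0.38 for JUND (95% interval -0.85 to 0.10, adjusted p = 0.193). Without ARID1A-KO replicate 5, JUND was called at -0.66 (adjusted p = 0.0120). With the replicate number as a block in the fit, both were called, JUNB at 0.37 (adjusted p = 0.0245) and JUND at -0.40 (adjusted p = 0.0385). In both genotypes replicate 5 was the highest sample for JUNB and for JUND. The lowest was replicate 4 in WT and replicate 3 in ARID1A-KO cells, so the order of samples was shared only in part.

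JUNB and JUND are also among the genes richest in GC, at 64.9% and 69.9% of their longest transcript, above 96.7% and 99.7% of the genes tested, respectively. The deviation of a gene from the mean of its genotype ran with GC content to a different degree in each sample, with Spearman correlations across 19020 genes from -0.27 in ARID1A-KO replicate 3 to 0.21 in WT replicate 5. Genes within a sample are not independent replicates, and these correlations describe the libraries. With GC content as an offset, an alternative added once the data had been seen, JUND was at -0.90 (adjusted p = 0.000139) and JUNB at 0.088. The neighbours of both genes lay lower, with medians of -0.37 around JUND and -0.31 around JUNB. With these medians taken off, JUND was at -0.0080 and JUNB at 0.68 (adjusted p = 0.0439). The values of these genes therefore depended on the setting, and the part of GC content and of the region in them was not tested further.

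As shares of the JUN class, JUN took 51.7% ± 3.64 (SD, n = 3) in WT and 52.6% ± 4.97 in ARID1A-KO cells. JUNB took 11.3%, 11.4% and 14.7% in WT and 16.5%, 17.4% and 19.1% in ARID1A-KO samples. JUND took 38.1%, 32.8% and 36.5% in WT and 27.5%, 27.7% and 34.0% in ARID1A-KO samples. The shares of JUNB did not overlap, whereas those of JUND did. The ratio of JUNB to JUND, also chosen after the values were seen, was 0.298, 0.348 and 0.403 in WT and 0.597, 0.629 and 0.560 in ARID1A-KO samples, so it did not overlap although both single genes did. The class as a whole summed to 261 ± 36.3 TPM in WT and 239 ± 54.6 TPM in ARID1A-KO cells.

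**Figure D4:**
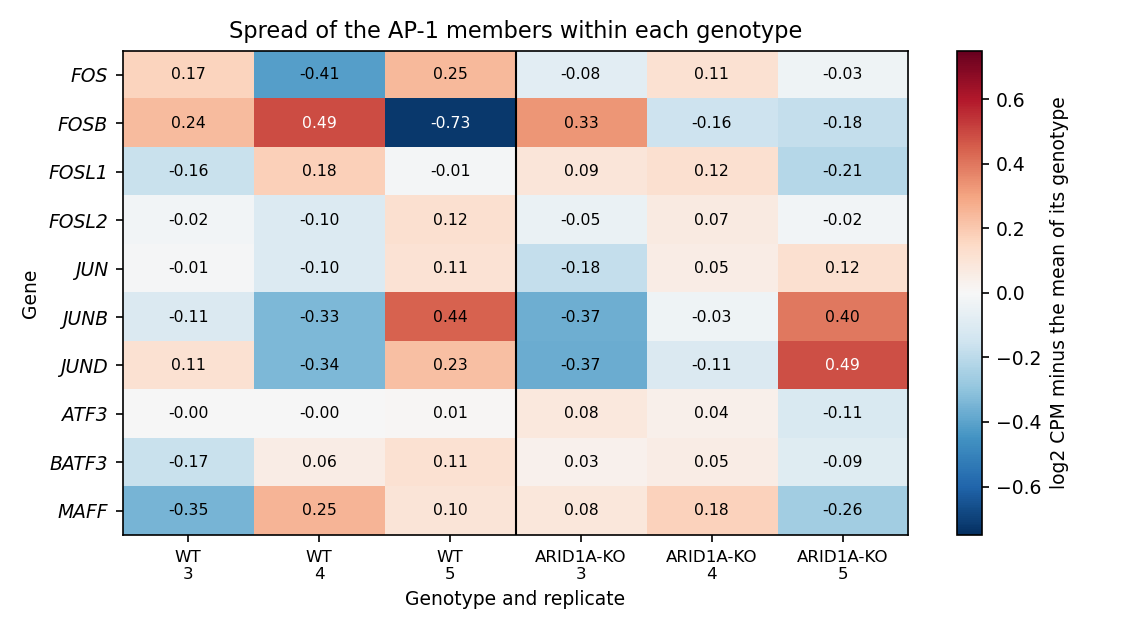
Deviation of each AP-1 member from the mean of its genotype, in log2 CPM, for the 3 WT and the 3 ARID1A-KO samples. FOSB ranges most widely, from -0.73 to 0.49. JUND ranges from -0.37 to 0.49, JUNB from -0.37 to 0.44 and FOS from -0.41 to 0.25, while ATF3 stays between -0.11 and 0.08.

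Of the related factors, ATF3 encodes a stress-induced protein that often represses its targets, and lies on chromosome 1 (ENSG00000162772.12, 212738676 to 212794119, plus strand). Its deviations from the genotype mean had the narrowest range of all members, and it stood at 38.8, 38.1 and 38.2 TPM in WT and 39.7, 40.0 and 37.3 TPM in ARID1A-KO samples. The log2 fold change was 0.03 (95% interval -0.12 to 0.18, adjusted p = 0.753). Its neighbour BATF3, whose protein is best known from dendritic cells and pairs with JUN proteins, lies next to it on the same chromosome (ENSG00000123685.4, 212859760 to 212873327, minus strand). BATF3 stood at 16.2, 18.7 and 19.3 TPM in WT and at 22.1, 23.3 and 21.8 TPM in ARID1A-KO samples, without overlap. The rise was 1.25-fold (log2 fold change 0.32, SE 0.09, adjusted p = 0.0269). The call was lost without WT replicate 3 (adjusted p = 0.0941), ARID1A-KO replicate 3 (adjusted p = 0.0835) or ARID1A-KO replicate 4 (adjusted p = 0.100). The 53 other genes tested around both had a median of -0.019, and all 4 leukocyte markers were under 1 TPM in every sample.

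MAFF encodes a small MAF protein, which lacks an activation domain and pairs with basic leucine zipper proteins of the NFE2 and BACH families. It lies on chromosome 22 (ENSG00000185022.7, 38597889 to 38612518, plus strand). Levels were 20.8, 31.1 and 27.7 TPM in WT and 37.8, 41.8 and 31.99 TPM in ARID1A-KO samples. The TPM did not overlap, but on the scale of normalised counts (CPM) WT replicate 4 (28.3 CPM) lay just above ARID1A-KO replicate 5 (28.1 CPM). MAFF rose 1.41-fold (log2 fold change 0.49, SE 0.16, adjusted p = 0.0358). That call was lost without WT replicate 3 (adjusted p = 0.0986), WT replicate 5 (adjusted p = 0.0740), ARID1A-KO replicate 3 (adjusted p = 0.0967) or ARID1A-KO replicate 4 (adjusted p = 0.123), with the GC offset (0.33, adjusted p = 0.158) and with the neighbour median taken off (0.46, adjusted p = 0.0519).

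Further basic leucine zipper genes that pair with AP-1 proteins or share their sites were read from a list of 16, of which 14 were tested, 4 were higher, 1 was lower and 9 did not pass. Over all genes tested, 36.2% were called, the share to set beside the counts of this and the following lists. BATF2, a relative of BATF3 known from interferon responses, rose from 3.50 ± 0.587 to 6.91 ± 0.0633 TPM (log2 fold change 0.98, adjusted p = 0.000768). CREB1, the cAMP-responsive factor, fell from 13.1 ± 0.282 to 10.2 ± 0.456 TPM (-0.35, adjusted p = 0.00206). BACH2 and MAFK, partners within the small MAF network, were called at 0.54 (adjusted p = 0.0215) and 0.26 (adjusted p = 0.0358). Each of these last calls was lost in several fits that left out 1 sample, BACH2 in 4 of 6 (without WT replicate 3 or 5 or ARID1A-KO replicate 3 or 4) and MAFK in 5 of 6 (all but ARID1A-KO replicate 3). With the GC offset MAFK was at 0.039 (adjusted p = 0.724). The median of the list was -0.035.

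MAP kinases, which phosphorylate JUN and the factors upstream of FOS, and their activators gave 7 calls among 16 tested genes, 6 of them lower. With the GC offset 4 were called. MAP2K2, an activator of the ERK kinases, fell from 144 ± 24.7 to 82.9 ± 15.7 TPM (log2 fold change -0.80, adjusted p = 0.00194). MAP2K4, an activator of the JUN kinases, fell from 26.5 ± 2.26 to 17.9 ± 0.651 TPM (-0.56, adjusted p = 0.000428). MAPK10, a JUN kinase mostly of the nervous system, was lower too (-1.52, adjusted p = 0.00793) but hardly expressed, at 0.140 ± 0.0276 and 0.0462 ± 0.0214 TPM. MAP2K3, an activator of p38 kinases, was the gene of the list called higher (0.19, adjusted p = 0.0317), a call lost in 4 of 6 fits that left out 1 sample (WT replicate 3 or 5, ARID1A-KO replicate 3 or 4) and with both offsets. Other genes of the JUN kinase branch, named after their values were seen, were MAP2K7 (-0.37, adjusted p = 0.00117) and MAPK8 (-0.30, adjusted p = 0.0174), while the JUN kinase MAPK9 did not pass (-0.20, adjusted p = 0.0535). MAP2K7 was at -0.087 (adjusted p = 0.285) once the median of its neighbours was taken off, and MAPK8 at -0.16 (adjusted p = 0.201) with the GC offset and at -0.24 (adjusted p = 0.0501) without WT replicate 4. The median of the list was -0.20, against 0.0066 over all genes.

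SRF and its partners carry growth factor signals to the FOS promoter. Of the 6 genes, MKL2, an SRF coactivator, was the single gene called (-0.27, adjusted p = 0.0380), and that call was lost without WT replicate 3 or 5 or ARID1A-KO replicate 3 or 4 and with both offsets. The median of the list was 0.027.

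Immediate early genes outside AP-1 were listed as 23 genes, of which 22 were tested. They gave 15 calls, 13 higher and 2 lower, with 7 that did not pass, and their median log2 fold change was 0.55. With the GC offset 11 were called, 9 higher and 2 lower. NR4A2, an orphan nuclear receptor, rose from 1.82 ± 0.475 to 5.22 ± 0.221 TPM (log2 fold change 1.52, adjusted p = 0.000250). EGR2, a zinc finger factor, rose from 0.203 ± 0.0905 to 0.593 ± 0.217 TPM (1.55, adjusted p = 0.0176), a call lost without WT replicate 3 or ARID1A-KO replicate 3 or 4. KLF2, another zinc finger factor, was called at 1.22 (adjusted p = 0.0171), with 8.27 and 9.32 TPM in ARID1A-KO replicates 3 and 4 but 23.0 TPM in replicate 5, against 5.52 to 6.32 TPM in WT. Without ARID1A-KO replicate 5 its log2 fold change was 0.63, and without WT replicate 5 the adjusted p was 0.0624. The genes that fell were DUSP1, a phosphatase that switches MAP kinases off, from 178 ± 29.9 to 89.0 ± 17.9 TPM (-0.998, adjusted p = 0.000609), and IER5, from 117 ± 17.6 to 78.8 ± 13.4 TPM (-0.57, adjusted p = 0.00647).

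**Figure D5:**
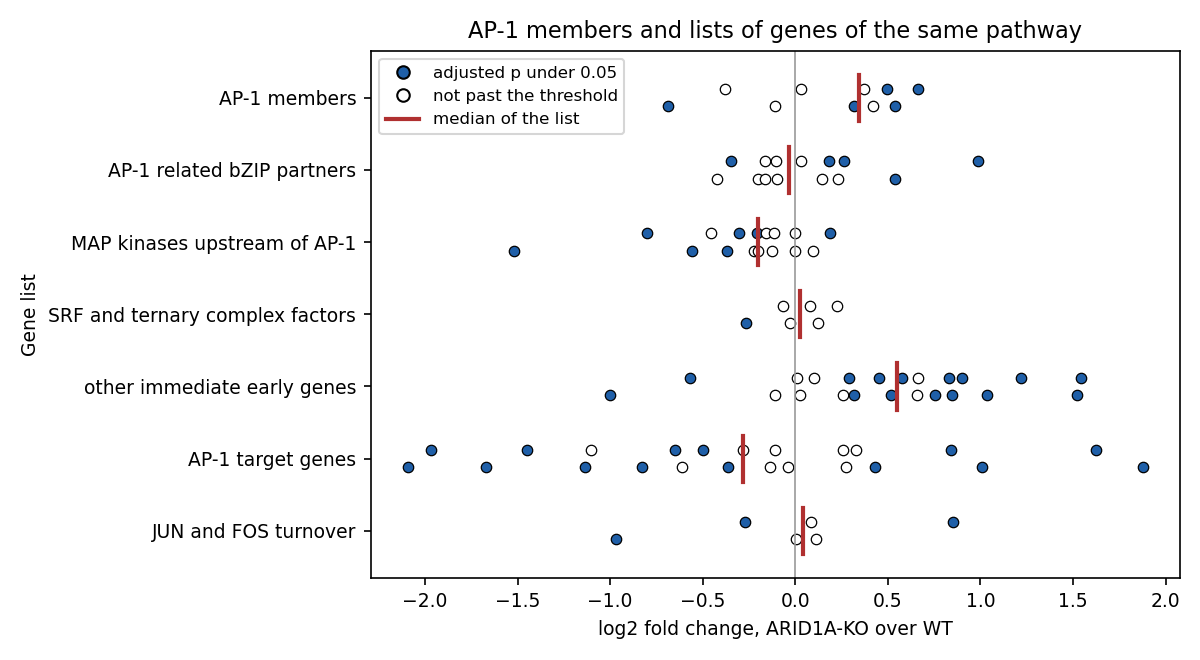
Log2 fold change, ARID1A-KO over WT, of the AP-1 members (top) and of 6 lists of genes from the same pathway, one circle per tested gene. Filled circles passed an adjusted p of 0.05 and red lines are medians. The early genes outside AP-1 lie mostly to the right (median 0.55), the MAP kinases mostly to the left (median -0.20), and the target genes on both sides.

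Target genes known for AP-1 control moved in both directions: of 23 tested, 5 were higher, 9 were lower and 9 did not pass, with a median of -0.28. PLAU, the urokinase that activates plasmin, rose from 24.0 ± 1.12 to 88.0 ± 8.02 TPM (log2 fold change 1.88, adjusted p = 4.79e-07). HMOX1, which degrades heme, rose from 41.4 ± 8.32 to 127 ± 10.5 TPM (1.62, adjusted p = 3.58e-05). The stromelysins MMP3 and MMP10 and the cytokine IL6 fell. MMP3 went from 153 ± 33.3 to 39.0 ± 9.68 TPM (-1.97, adjusted p = 5.93e-05), and IL6 from 1.81 ± 0.229 to 0.407 ± 0.207 TPM (-2.09, adjusted p = 0.000570). MMP10 was at 3.71, 6.47 and 13.2 TPM in WT and at 2.37, 2.20 and 2.71 TPM in ARID1A-KO samples (-1.67, adjusted p = 0.00963), and without WT replicate 5 it was at -1.06.

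Ligase genes for the degradation of JUN and FOS proteins gave 3 calls among 6. ITCH, a ubiquitin ligase of JUN proteins, rose from 25.8 ± 0.784 to 46.3 ± 2.48 TPM (log2 fold change 0.85, adjusted p = 3.18e-05). FBXW7, the substrate receptor of another JUN ligase, fell from 8.54 ± 0.253 to 4.34 ± 0.0892 TPM (-0.97, adjusted p = 2.00e-05), and CUL4A, a cullin scaffold, from 163 ± 3.01 to 134 ± 1.38 TPM (-0.27, adjusted p = 0.00501). The regions of both genes were lower as well, with neighbour medians of -0.88 and -0.36. With these taken off, FBXW7 was at -0.089 (adjusted p = 0.391) and CUL4A, in the opposite direction, at 0.093 (adjusted p = 0.238). RNA levels were measured here, and protein levels of the members were not analysed.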

How the data were processed

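RNA-seq of 3 WT and 3 ARID1A-KO samples was analysed, grouped by the labels. Per the labels and methods, the authors used STAR (Roddy workflow, GRCh37) for alignment and featureCounts for counting. The deposited counts are raw whole numbers per gene. The deposited TPM values sum to 1000000 per sample. Tool versions are not given in the sources used here. Reverse-stranded counts were used, as the kit is stranded. The molecule is labelled polyA RNA, whereas the protocol names a total RNA kit.

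After filterByExpr and TMM normalization, genes were tested with edgeR's quasi-likelihood test (edgeR 4.0.16, R 4.3.3) with Benjamini-Hochberg adjustment over all genes, and called at an adjusted p under 0.05. Depth leaves little counting error for most genes, but FOSB, MAPK10, EGR2, IL6 and MMP10 had under 80 counts in some or all samples. The biological coefficient of variation common to all genes was 0.111. No samples were duplicates: chi-square per gene was 7.01 between ARID1A-KO replicates 3 and 4, and 17.8 to 33.5 between the other pairs of replicates. Overlapping or near-identical genes are uncertain. JUNB lost 10.9% of its counts without strand, whereas the other members changed by at most 1.52%. GC content was that of the longest transcript of a gene, from a later annotation than that of the counts, and was matched for 97.0% of genes.

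The members and lists were chosen with earlier results of these data known. Named genes are all members, ARID1A and, per list, up to 3 called genes with the largest rise and 3 with the largest fall, of which 1 is not reported here. Alternatives were unstranded counts, RLE, DESeq2 1.42.0, 2 other filters, a replicate block, each sample left out, the median of neighbours within 5 Mb as an offset (for members as planned, for other genes added after seeing the data) and a GC offset (loess span 0.3), also added.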

Additional observations from a re-analysis of the deposited data

Results flagged for a closer look

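Forward-strand counts were outside the comparison, since the libraries are reverse-stranded. FOSL1 held a forward-strand signal that was higher in ARID1A-KO cells, at 8.68, 7.18 and 11.2 CPM (counts per 1000000 forward-strand counts, mean 9.03 ± 2.04, SD, n = 3), than in WT, at 5.22, 5.68 and 3.42 (4.77 ± 1.20). These are 35, 23 and 58 counts against 21, 24 and 12, or 0.793% and 0.598% of the reverse-strand counts of the gene. The difference was not tested.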

How the results depend on the processing

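FOSL1 (0.45 to 0.64 with 1 sample left out) and FOSL2 (-0.74 to -0.63) kept their direction and stayed under an adjusted p of 0.05 in all 14 alternative fits. Of 558 log2 fold changes recomputed for 40 genes, 497 kept direction and side of the threshold, 47 lost their call, 11 gained one and 3 changed sign (ATF3, CUL4A and FN1, the last from -0.41 to 0.17 with 1 sample left out). Of the shares, the difference for JUN ranged from -0.77 to 3.78 percentage points with 1 sample left out. The counts of calls over all genes were 7213 with unstranded counts, 7069 with RLE, 6884 with DESeq2, 6423 with at least 10 counts in every sample, 8223 without a filter and 7199 with the GC offset (3751 higher and 3448 lower), and 5285 to 7050 with 1 sample left out. The 2-fold criterion left 0 members called, against 5 by edgeR without it. With 1 sample left out, calls ranged from 2 to 6 for the members, 2 to 5 for the partners, 5 to 8 for the MAP kinases, 0 to 2 for the SRF list, 11 to 17 for the other early genes, 13 to 17 for the targets and 3 to 3 for the ligases, and log2 fold changes from 0.48 to 0.78 for FOS, 0.23 to 0.37 for BATF3, 0.33 to 0.63 for MAFF, -0.66 to -0.20 for JUND and -0.0055 to 0.087 for ATF3, whose sign turned without ARID1A-KO replicate 3. Without a filter JUNB (0.36, adjusted p = 0.00254) and JUND (-0.38, adjusted p = 5.37e-05) were called, as were 2 genes of the SRF list. With the neighbour offset FOS was at 0.27, JUNB at 0.68, MAFF at 0.46 (adjusted p = 0.0519) and CUL4A at 0.093. With the GC offset JUND was at -0.90 and MAFF at 0.33. In that fit 4 MAP kinases, 0 genes of the SRF list and 11 of the other early genes were called. The cause of these changes was not tested beyond the offsets themselves.

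Whether the shared replicate numbers pair the samples was not resolved. Deviations of same-numbered samples correlated at -0.18, 0.27 and 0.18 across genes for numbers 3, 4 and 5. WT replicate 3 correlated best with ARID1A-KO replicate 5 (0.30). Deviations from a mean of 3 samples are tied to each other within a genotype and ran with GC content, so these correlations cannot decide it. With a replicate block, 7477 genes and 7 members were called, the added ones being JUNB (0.37, adjusted p = 0.0245) and JUND (-0.40, adjusted p = 0.0385). With 3 samples per group, and 22 to 79 reads for FOSB, small differences may have gone undetected.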
